A study of Homo sapiens with 6 samples.

Results

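RNA sequencing of DCIS.COM cells was used to ask how 37 genes of cholesterol and fatty acid synthesis were expressed after knockdown of BCL9. The genes were taken by symbol from the 58676 genes of the deposited table, and all 37 were found. They comprised 8 genes of the mevalonate pathway, 11 enzymes of the sterol branch, 5 SREBP genes and regulators, 2 sterol transport genes, 7 genes of fatty acid synthesis and desaturation, and 4 genes of the LXR and sterol efflux arm. DCIS.COM is an established human breast cell line of basal type that is used as a model of ductal carcinoma in situ. The 3 NS control samples carried the PLKO.1 lentiviral vector with a non-silencing shRNA, and the 3 BCL9 KD samples carried PLKO.1 with an shRNA against BCL9. Cells of both groups were grown in medium with horse serum and were kept under puromycin selection, and each sample came from its own flask. BCL9 is a nuclear co-activator of the Wnt pathway. The comparison rests on 1 cell line and a single BCL9 shRNA, and p-values measure the spread between flasks of the same transduced cells. All libraries were made from total RNA of whole cultures, so fewer cells of a kind and less RNA per cell cannot be told apart.

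Cholesterol is built from acetyl-CoA through mevalonate and isoprenoid units to squalene, which is closed into lanosterol and trimmed to cholesterol. Fatty acids are built from the same acetyl-CoA through malonyl-CoA. Both pathways are controlled by the SREBP transcription factors, which are held in the endoplasmic reticulum by SCAP and the INSIG proteins when sterols are plentiful and are released to the nucleus when sterols run low. SREBF2 encodes the factor that mainly drives cholesterol genes, and SREBF1 encodes factors that mainly drive fatty acid genes. Liver X receptors, of which NR1H2 encodes a form found in most tissues, respond to oxysterols and switch on the efflux transporters ABCA1 and ABCG1 as well as MYLIP.

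Promoter windows were available for 32 of the 37 genes, from RefSeq on GRCh38.p14, each covering 250 bases before to 50 bases after the annotated start of the gene. Windows of 5 genes are shown because the results below turn on them or on the factor they encode. LSS, FADS1 and ACACA fell after knockdown, HMGCS1 had its BCL9 KD samples above all controls, and SREBF2 encodes the sterol-responsive factor. The 250 bases upstream of the start are printed in the direction of the gene. They lie at chr22:41832855-41833104 on the plus strand for SREBF2, and on the minus strand at chr21:46228775-46229024 for LSS, chr11:61817004-61817253 for FADS1, chr17:37406837-37407086 for ACACA and chr5:43313413-43313662 for HMGCS1. The RefSeq start of FADS1 lies inside the span that the deposited table gives for the gene. Capitals mark exact matches, on either strand, to a sterol regulatory element, an E-box, a CCAAT box or a GC box.
SREBF2: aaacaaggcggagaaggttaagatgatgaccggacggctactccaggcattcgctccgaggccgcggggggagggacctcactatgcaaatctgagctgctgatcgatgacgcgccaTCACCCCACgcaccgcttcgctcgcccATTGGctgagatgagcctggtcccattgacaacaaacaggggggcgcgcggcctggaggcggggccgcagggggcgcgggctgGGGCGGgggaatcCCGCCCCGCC
LSS: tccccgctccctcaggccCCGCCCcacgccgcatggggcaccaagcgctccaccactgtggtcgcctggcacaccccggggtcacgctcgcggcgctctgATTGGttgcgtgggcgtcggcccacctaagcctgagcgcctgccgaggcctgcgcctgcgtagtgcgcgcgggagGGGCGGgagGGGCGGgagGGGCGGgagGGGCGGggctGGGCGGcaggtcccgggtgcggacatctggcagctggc
FADS1: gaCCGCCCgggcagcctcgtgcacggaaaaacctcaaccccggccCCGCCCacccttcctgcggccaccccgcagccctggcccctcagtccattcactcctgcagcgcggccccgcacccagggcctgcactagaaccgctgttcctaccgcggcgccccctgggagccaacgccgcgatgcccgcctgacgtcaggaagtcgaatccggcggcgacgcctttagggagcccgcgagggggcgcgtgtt
ACACA: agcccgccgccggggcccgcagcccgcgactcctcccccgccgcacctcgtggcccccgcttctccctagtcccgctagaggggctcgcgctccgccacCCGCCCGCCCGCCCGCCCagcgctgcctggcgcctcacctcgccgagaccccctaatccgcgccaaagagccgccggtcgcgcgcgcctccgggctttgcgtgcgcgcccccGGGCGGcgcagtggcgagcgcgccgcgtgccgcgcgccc
HMGCS1: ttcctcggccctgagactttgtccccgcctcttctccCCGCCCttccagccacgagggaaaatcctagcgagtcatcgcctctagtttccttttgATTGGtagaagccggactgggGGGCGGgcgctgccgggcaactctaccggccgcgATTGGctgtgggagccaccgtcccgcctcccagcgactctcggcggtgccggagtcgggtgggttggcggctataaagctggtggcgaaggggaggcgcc

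The sterol regulatory element, searched as TCACNCCAC, was found in 1 of 32 windows, that of SREBF2, where TCACCCCAC begins 133 bases before the start. It was found in 1.15% of all 27305 windows and in 1.04% of the 8919 windows of tested genes. A CCAAT box, named for its letters, was present in 18 of the 32 windows, including LSS, HMGCS1 and SREBF2 but neither FADS1 nor ACACA, and in 37.1% of windows of tested genes. A GC box, GGGCGG, was present in 29 of the 32 windows and in 71.1% of windows of tested genes. The windows of LSS and ACACA held 7 and 6 copies of it. An E-box, CACGTG, was present in 5 windows, those of ABCA1, INSIG1, LSS, SC5D and SCAP, and in 10.3% of windows of tested genes. The E-box of LSS lies in the 50 bases after the start and is therefore not among the printed bases. The direct repeat of LXR half-sites with a spacer (DR4) was found in 0 of the 32 windows and in 0.0183% of all windows. Both strands were searched, GC boxes can overlap each other in runs of C or G, and a match describes letters in a window only.

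Reads counted on genes ranged from 15222452 to 22712638 in NS control and from 15665714 to 26949026 in BCL9 KD samples. NS control replicate 1 stood apart from the other libraries in its dependence on base composition. Its log2 levels increased by 0.21 for each 10 percentage points of transcript GC content relative to the mean of the 6 samples, whereas the slopes of the other 5 samples were between −0.07 and 0.01. Basal mammary markers (KRT5, KRT14, KRT17, TP63 and EGFR) were all detected, with summed levels of 983 to 1151 FPKM in NS control and 1018 to 1070 FPKM in BCL9 KD. FPKM scales the reads on a gene by the length of the gene and by the reads counted in the sample. Of the 5 adipocyte markers, 0 reached a mean of 0.5 FPKM, ADIPOQ and FABP4 were at 0, and the sums were 0.0812 to 0.326 FPKM in NS control and 0.0592 to 0.234 FPKM in BCL9 KD. Of the 6 luminal markers 4 reached 0.5 FPKM and PGR was at 0, and their sums were 434 to 551 FPKM in NS control and 396 to 413 FPKM in BCL9 KD. Of the 4 hepatocyte markers 1 reached 0.5 FPKM, with sums of 52.9 to 64.1 FPKM and 72.4 to 76.6 FPKM. The fibroblast sums were 0.534 to 0.597 FPKM and 0.629 to 0.743 FPKM, with 1 of 4 markers at 0.5 FPKM or more and COL3A1 at 0. The part of these marker levels in the results was not tested. BCL9 itself was at 6.25, 6.24 and 5.34 FPKM in the NS control samples and at 2.86, 2.78 and 2.59 FPKM in the BCL9 KD samples. It fell by 0.99 on the log2 scale (SE 0.0933, adjusted p = 0.00773 by limma), and the log2 change stayed between −1.06 and −0.95 when single samples were left out. The adjusted p of BCL9 was then 0.0636 without NS control replicate 2, 0.0600 without BCL9 KD replicate 2 and 0.0700 without BCL9 KD replicate 3.

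Of the 37 genes, 35 had a mean of at least 0.5 FPKM over the 6 samples and were tested, and ABCA1 and ABCG1 were not. Knockdown samples were lower in 4 genes, SQLE, LSS, ACACA and FADS1, at an adjusted p under 0.05 in limma fitted over all 13745 tested genes, and 0 genes were higher. These 4 are 11.4% of the 35, beside 5.87% of all tested genes called in either direction, of which 2.96% were higher and 2.91% were lower. All 37 genes are protein-coding, and when only protein-coding genes were fitted the share was again 11.4% of the 35 but 12.6% of all genes tested, so the share of called lipid genes was then no higher than the background. With voom on recovered reads it was 11.4% beside 10.1%. In 7 of the 35 genes all 3 BCL9 KD samples lay above all 3 controls, beside 17.8% of all tested genes, and in 9 they lay below, beside 16.4% of all tested genes. At an unadjusted p under 0.05, 13 of the 35 genes (37.1%) differed, 5 upward and 8 downward, beside 27.5% of all tested genes. The median log2 fold change of the 35 was −0.02, beside 0.04 over all tested genes, and the median absolute change was 0.19 beside 0.20. The genes thus divided into 16 above 0 and 19 below 0, over a range of −0.59 to 0.67. With 3 samples against 3, the smallest two-sided p of an exact permutation test is 0.1, and each of the 16 genes without overlap reached it. All fold changes are on the scale of log2(FPKM + 0.5), BCL9 KD minus NS control, which understates the change of low genes.

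**Figure D1:**
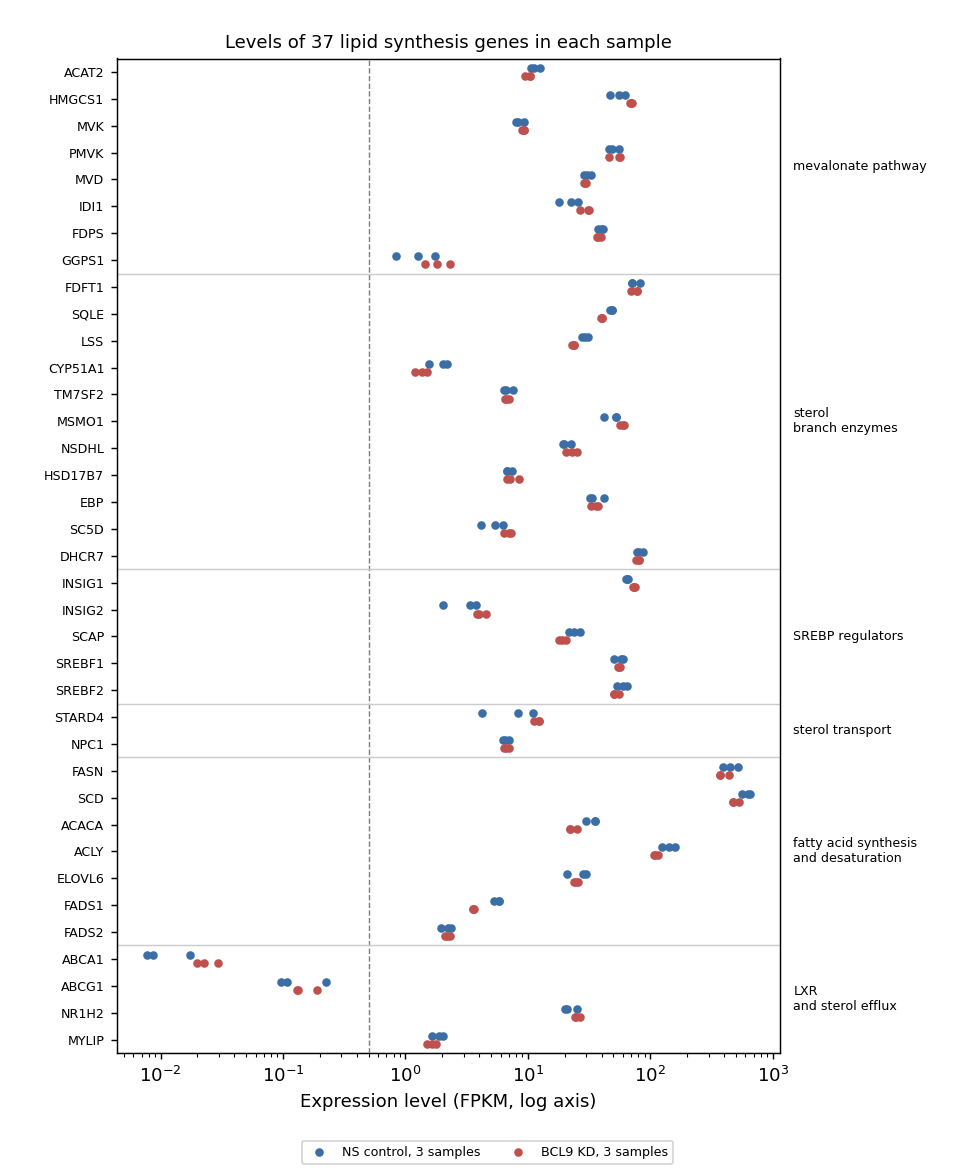
Level of each of the 37 genes in each of the 6 samples, in FPKM on a log axis, by role (blue, 3 NS control samples; red, 3 BCL9 KD samples). SCD and FASN are the most abundant, and ABCA1 and ABCG1 lie left of the dashed line at 0.5 FPKM. The 2 groups separate in 16 of the 35 tested genes, SQLE, LSS, ACACA and FADS1 among them.

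The genes of the mevalonate pathway did not move together. The early enzyme HMGCS1 and the isomerase IDI1 had higher values in every BCL9 KD sample than in any control, ACAT2 had lower ones, and 0 of 8 passed the test. HMGCS1, the synthase that makes HMG-CoA, maps to chr5:43289395-43313512 on GRCh38. Its levels were 46.8, 55.6 and 62.6 FPKM in NS control and 68.7, 71.1 and 69.5 FPKM in BCL9 KD samples. The BCL9 KD values were close together and above a wide range of controls, with means of 55 ± 7.92 and 69.8 ± 1.23 FPKM (SD, n = 3). The log2 difference was 0.35 (SE 0.108, adjusted p = 0.0970 by limma, 95% interval 0.09 to 0.61), 0.24 without NS control replicate 1, and 0.45 with an adjusted p of 0.0390 without NS control replicate 3. A share of 37.7% of the exonic bases of HMGCS1 also lies in exons of another annotated gene on the opposite strand, and its count is uncertain to that extent since the strand setting of the counting is not given in the sources used here.

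IDI1, which interconverts the isoprenoid building blocks (chr10:1039908-1049170), was at 17.9, 22.5 and 25.7 FPKM in NS control and at 26.5, 30.8 and 31.8 FPKM in BCL9 KD. NS control replicate 1 was the lowest of the 6, and the nearest samples of the 2 groups were close together. The log2 difference was 0.43 (SE 0.140, adjusted p = 0.107), 0.29 without NS control replicate 1, and 0.55 with an adjusted p of 0.0471 without NS control replicate 3. ACAT2, a cytosolic thiolase that joins acetyl-CoA units, was between 10.7 and 12.6 FPKM in NS control and between 9.57 and 10.4 FPKM in BCL9 KD. Its log2 difference was −0.18 (SE 0.0853, adjusted p = 0.234), and −0.11 without NS control replicate 1. Of the exonic bases of ACAT2 22.2%, and of those of IDI1 15.0%, lie in exons of other genes on the opposite strand. GGPS1, which makes geranylgeranyl diphosphate for protein prenylation, differed by 0.42 (SE 0.227, adjusted p = 0.269) on 72 to 187 reads a sample, and its groups overlapped. That difference was 0.23 without NS control replicate 1, and 41.0% of the exonic bases of GGPS1 are shared with other genes. The kinases MVK and PMVK, the decarboxylase MVD and the farnesyl diphosphate synthase FDPS had log2 differences between −0.06 and 0.09, and their groups overlapped.

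Within the sterol branch, SQLE and LSS, which catalyse consecutive steps from squalene to lanosterol, fell after knockdown. CYP51A1, which follows LSS, also had lower values in every BCL9 KD sample without passing the test, whereas FDFT1, which precedes SQLE, was near 0, and the later enzymes MSMO1 and SC5D had higher values in every BCL9 KD sample. SQLE, the squalene epoxidase, was at 49.2, 49.1 and 47.0 FPKM in NS control and at 40.3, 39.6 and 40.4 FPKM in BCL9 KD. The gap between the groups was wider than the range within either of them, with means of 48.4 ± 1.22 and 40.1 ± 0.465 FPKM. SQLE fell by 0.27 on the log2 scale (SE 0.0592, adjusted p = 0.0485 by limma, 95% interval −0.41 to −0.13). None of its exonic bases is shared with another gene. The size of the change stayed between −0.29 and −0.26 when any sample was left out, but its adjusted p was then 0.0430 without NS control replicate 3 and 0.0527 to 0.217 without any other sample.

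LSS, the lanosterol synthase (chr21:46188141-46228824), was at 30.9, 29.5 and 27.6 FPKM in NS control and at 23.6, 23.8 and 23.0 FPKM in BCL9 KD. Every control was above every knockdown sample, with means of 29.4 ± 1.69 and 23.5 ± 0.436 FPKM. LSS fell by 0.31 on the log2 scale (SE 0.0689, adjusted p = 0.0483 by limma, 95% interval −0.48 to −0.15). Without single samples the log2 change of LSS was −0.36 to −0.28, with an adjusted p of 0.0349 without NS control replicate 3 and of 0.0552 to 0.207 without any other. Both SQLE and LSS lost the call under median-of-ratios scaling, at adjusted p values of 0.0581 and 0.0621, with log2 changes of −0.30 and −0.35.

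CYP51A1, the lanosterol demethylase, was at 1.57, 2.01 and 2.19 FPKM in NS control and at 1.19, 1.37 and 1.49 FPKM in BCL9 KD, on 86 to 166 reads. The groups did not overlap, but the spread within each was wide, and the log2 difference of −0.38 (SE 0.140) had an adjusted p of 0.134. Of its exonic bases 74.1% also belong to exons of other genes, mostly on the same strand, so this low level may leave out ambiguous reads and is uncertain. The gene lies at chr7:92112151-92142952.

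The later enzymes MSMO1 and SC5D, a sterol methyl oxidase and the lathosterol desaturase, had higher values in every BCL9 KD sample without passing the test, and after the GC correction their log2 differences were 0.07 and 0.17. MSMO1 was between 42.0 and 52.7 FPKM in NS control and between 56.1 and 61.0 FPKM in BCL9 KD, a log2 difference of 0.27 (SE 0.103, adjusted p = 0.145) that was 0.17 without NS control replicate 1. SC5D (chr11:121292453-121308694) was at 4.18, 5.35 and 6.31 FPKM in NS control and at 6.36, 7.03 and 7.35 FPKM in BCL9 KD. The highest control of SC5D nearly met the lowest knockdown sample, and the log2 difference of 0.37 (SE 0.144, adjusted p = 0.15) was 0.23 without NS control replicate 1. NSDHL, a sterol dehydrogenase, had a log2 difference of 0.16 (adjusted p = 0.341) with overlapping groups, and of 0.09 without BCL9 KD replicate 2. The remaining 5 enzymes, FDFT1 (squalene synthase), TM7SF2 (a sterol reductase), HSD17B7 (a sterol ketoreductase), EBP (a sterol isomerase) and DHCR7 (the last reductase before cholesterol), had log2 differences between −0.04 and 0.08. Their groups overlapped, and the count of EBP is uncertain because 36.4% of its exonic bases are shared with another gene on the same strand.

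**Figure D2:**
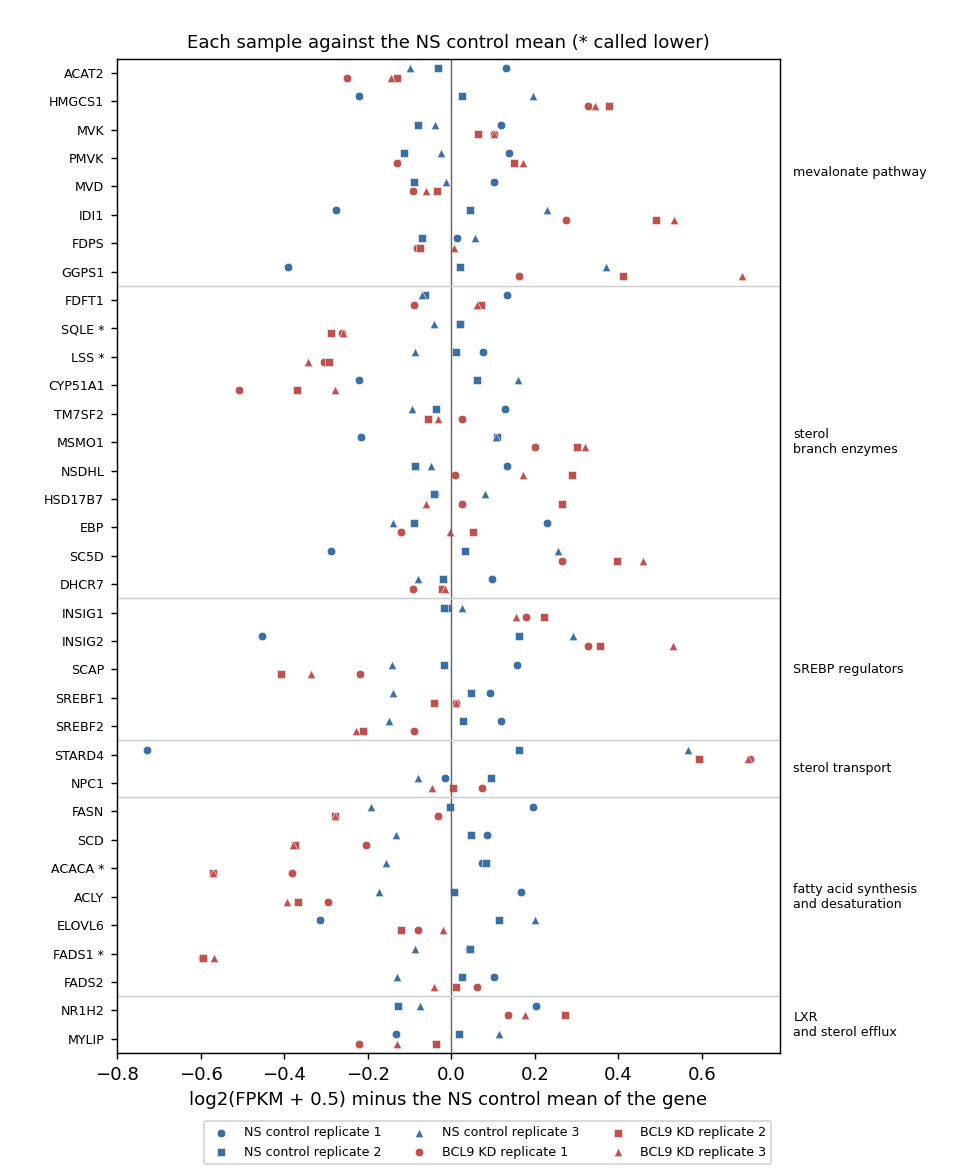
Deviation of each sample from the NS control mean of the gene, on the scale of log2(FPKM + 0.5), for the 35 tested genes (blue, NS control; red, BCL9 KD; circle, square and triangle, replicates 1, 2 and 3; asterisk, called lower). Red symbols lie left of all blue ones in 9 genes, SQLE, LSS, ACACA and FADS1 among them, and NS control replicate 1 (blue circle) lies far left in STARD4, INSIG2 and IDI1.

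The genes for the SREBP factors themselves did not pass the test, nor did their regulators. SREBF1 was at 59.4, 57.5 and 50.4 FPKM in NS control and at 56.0, 54.1 and 56.1 FPKM in BCL9 KD (chr17:17810399-17837002). The knockdown values lay within the range of the controls, and the log2 difference was −0.01 (SE 0.0793, adjusted p = 0.966, 95% interval −0.19 to 0.18), with a sign that turned under other settings. SREBF2 (chr22:41833079-41907308) was at 64.1, 60.2 and 53.2 FPKM in NS control and at 55.5, 50.9 and 50.3 FPKM in BCL9 KD. Its groups overlapped through NS control replicate 3, and the log2 difference was −0.18 (SE 0.0884, adjusted p = 0.244, 95% interval −0.39 to 0.03). It was −0.12 without NS control replicate 1 and −0.09 after the correction for GC content described further on. The ratio of SREBF1 to SREBF2 was 0.926, 0.955 and 0.948 in NS control and 1.01, 1.06 and 1.11 in BCL9 KD samples, without overlap. Of all tested single genes 34.2% had no overlap, and no such share was computed for ratios.

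SCAP, the escort that carries SREBP precursors to the Golgi (chr3:47413694-47477126), was at 26.8, 23.7 and 21.7 FPKM in NS control and at 20.5, 17.9 and 18.9 FPKM in BCL9 KD. All knockdown samples were lower, and the log2 difference was −0.32 (SE 0.0972, adjusted p = 0.0937, 95% interval −0.55 to −0.09). It was −0.39 with an adjusted p of 0.0485 without NS control replicate 3, and −0.24 without NS control replicate 1. The INSIG genes, whose products retain SCAP in the endoplasmic reticulum, had higher values in every BCL9 KD sample. INSIG1 (chr7:155297776-155310235) was at 64.4, 63.9 and 66.0 FPKM in NS control and at 73.4, 75.6 and 72.2 FPKM in BCL9 KD. Both groups of INSIG1 were tight, with a log2 difference of 0.19 (SE 0.0592, adjusted p = 0.103, 95% interval 0.05 to 0.33). INSIG2 (chr2:118088452-118110997) was at 2.04, 3.39 and 3.76 FPKM in NS control and at 3.87, 3.95 and 4.52 FPKM in BCL9 KD. The groups did not overlap with or without NS control replicate 1, but the log2 difference of 0.41 (SE 0.196, adjusted p = 0.231) was 0.18 without that sample. The ratio of INSIG1 to INSIG2 was 31.6, 18.9 and 17.5 in NS control and 19.0, 19.1 and 16.0 in BCL9 KD, with overlap.

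STARD4, a cytosolic carrier of cholesterol, had the largest positive log2 difference of the 35 genes and widely spread controls. It was at 4.23, 8.26 and 11.1 FPKM in NS control and at 12.4, 11.3 and 12.3 FPKM in BCL9 KD (chr5:111496033-111512590). NS control replicate 1 was far below the other 2 controls, and replicate 3 was close to the knockdown samples. The log2 difference of 0.67 (SE 0.298, adjusted p = 0.199) was 0.31 without NS control replicate 1 and 0.96 without NS control replicate 3. NPC1, which exports cholesterol from the lysosome, had a log2 difference of 0.01 (adjusted p = 0.944) that turned below 0 with other scalings, and its groups overlapped.

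Among the 7 genes of fatty acid synthesis and desaturation, 6 had log2 differences below 0, the median was −0.32, 4 had all BCL9 KD samples below all controls (beside 16.4% of all tested genes), and ACACA and FADS1 fell past the threshold (beside 2.91% of all tested genes). ACACA encodes the acetyl-CoA carboxylase that makes malonyl-CoA, the committed step of the pathway (chr17:37084988-37406818). It was at 35, 35.3 and 29.8 FPKM in NS control and at 25.4, 22.3 and 22.3 FPKM in BCL9 KD. The lowest control was above the highest knockdown sample, with means of 33.4 ± 3.10 and 23.3 ± 1.83 FPKM. ACACA fell by 0.51 on the log2 scale (SE 0.0953, adjusted p = 0.0361 by limma, 95% interval −0.73 to −0.28). Without single samples its log2 change was −0.59 to −0.47, and the adjusted p was 0.0258 without NS control replicate 3, 0.0370 without BCL9 KD replicate 1 and 0.0534 to 0.174 without any other sample. SQLE, LSS and ACACA also lost their calls without the filter on low levels and without the empirical Bayes trend.

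FADS1, a front-end desaturase of polyunsaturated fatty acids (chr11:61799625-61829318), had the largest decrease of the 35 genes before correction for GC content. After that correction CYP51A1 at −0.54 was lower than FADS1 at −0.50. FADS1 was at 5.85, 5.86 and 5.30 FPKM in NS control and at 3.58, 3.58 and 3.66 FPKM in BCL9 KD. The 3 knockdown values were almost identical, and the mean of 3.60 ± 0.0447 FPKM was 0.636 times the control mean of 5.67 ± 0.318 FPKM. FADS1 fell by 0.59 on the log2 scale (SE 0.0781, adjusted p = 0.0171 by limma, 95% interval −0.77 to −0.40). The log2 change of FADS1 was −0.63 to −0.56 when single samples were left out, with an adjusted p of 0.0225 to 0.0337 without NS control replicate 1, NS control replicate 3 or BCL9 KD replicate 1. It was 0.0951, 0.117 and 0.115 without NS control replicate 2, BCL9 KD replicate 2 and BCL9 KD replicate 3. FADS2, the neighbouring desaturase that acts before FADS1 in the same route, was at 2.38, 2.23 and 1.95 FPKM in NS control and at 2.29, 2.20 and 2.10 FPKM in BCL9 KD. Its groups overlapped, with a log2 difference of 0.01 (SE 0.103, adjusted p = 0.958, 95% interval −0.23 to 0.25) and a sign that turned with the scaling. The ratio of FADS1 to FADS2 was 2.46, 2.63 and 2.72 in the NS control samples and 1.56, 1.63 and 1.74 in the BCL9 KD samples. The groups did not overlap in this ratio, with means of 2.60 ± 0.131 and 1.64 ± 0.0907.

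ACLY, which makes cytosolic acetyl-CoA from citrate (chr17:41866908-41930542), was at 159, 142 and 125 FPKM in NS control and at 115, 109 and 107 FPKM in BCL9 KD. All knockdown samples were lower, and the log2 difference of −0.35 (SE 0.0966) had an adjusted p of 0.0754 and of 0.0349 without NS control replicate 3. SCD, the stearoyl-CoA desaturase (chr10:100347124-100364834), was at 651, 635 and 561 FPKM in NS control and at 533, 474 and 472 FPKM in BCL9 KD. The groups did not overlap, with a log2 difference of −0.32 (SE 0.0923, adjusted p = 0.0844). Quantile normalization gave −0.51 for SCD (adjusted p = 0.0275) and −0.44 for ACLY (adjusted p = 0.0325). Median-of-ratios scaling gave adjusted p values of 0.0994 and 0.0927 for SCD and ACLY. With voom they were 0.0634 and 0.0592, and with a replicate block 0.156 and 0.125. After the GC correction the adjusted p was 0.0617 for SCD and 0.0394 for ACLY. FASN, the fatty acid synthase (chr17:82078333-82098332), was at 518, 451 and 396 FPKM in NS control and at 442, 373 and 373 FPKM in BCL9 KD. BCL9 KD replicate 1 was within the range of the controls, and the log2 difference was −0.20 (SE 0.122, adjusted p = 0.334, 95% interval −0.49 to 0.09). It was −0.10 without NS control replicate 1, −0.29 without NS control replicate 3 and −0.36 with quantile normalization (adjusted p = 0.125). ELOVL6, an elongase of saturated fatty acids, differed by −0.07 (adjusted p = 0.748) with overlapping groups. That difference was −0.23 without NS control replicate 1 and 0.03 without NS control replicate 3.

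**Figure D3:**
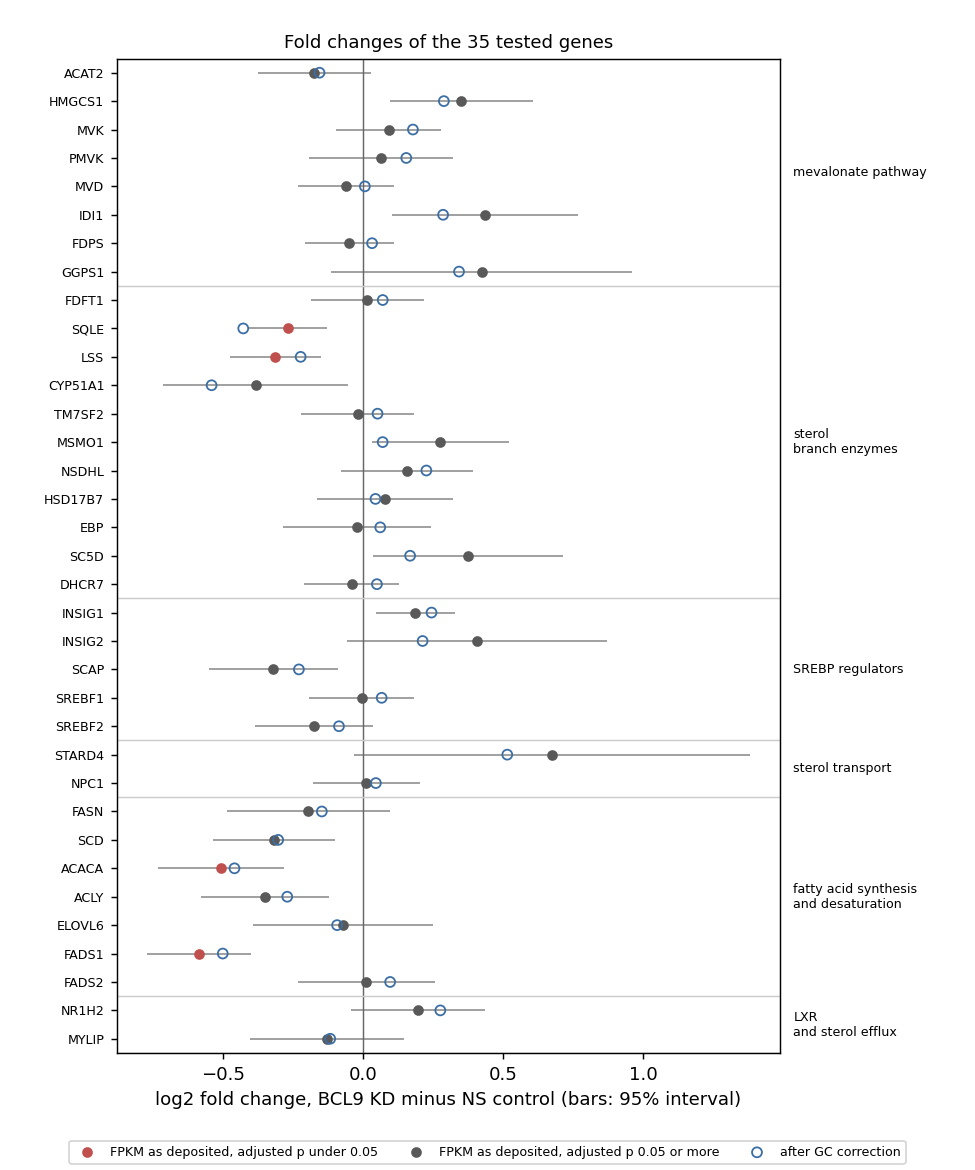
Log2 fold change of the 35 tested genes, BCL9 KD minus NS control, with 95% intervals from limma (red, adjusted p under 0.05; grey, not) and after correction for GC content (open circles). FADS1 at −0.59 and ACACA at −0.51 have the lowest values, STARD4 at 0.67 has the highest value and the widest interval, and FADS2 lies at 0.01.

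The efflux transporters were close to absent. ABCA1, which loads cholesterol onto lipoproteins, was at 0.00776, 0.00871 and 0.0174 FPKM in NS control and at 0.0199, 0.0294 and 0.0225 FPKM in BCL9 KD, on 2 to 9 reads a sample. ABCG1 was at 0.0969 to 0.223 FPKM in NS control and at 0.129 to 0.188 FPKM in BCL9 KD, on 10 to 31 reads. The groups did not overlap in ABCA1 and overlapped in ABCG1, and neither gene was tested because of its low level. NR1H2, the LXR gene of the list, had a log2 difference of 0.20 (SE 0.102, adjusted p = 0.258), or 0.30 without NS control replicate 1, and 22.1% of its exonic bases lie in another gene. MYLIP, a ubiquitin ligase for lipoprotein receptors and a known LXR target, had a log2 difference of −0.13 (adjusted p = 0.490). The value of MYLIP was −0.20 without NS control replicate 1 and −0.07 without NS control replicate 3. The groups overlapped in both NR1H2 and MYLIP.

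SCD and FASN were among the most abundant transcripts of these cells, with mean levels above 99.7% and 99.6% of tested genes. Summed over the 37 genes, the level was 2105 ± 138 FPKM in NS control and 1903 ± 58.4 FPKM in BCL9 KD, and the genes took 1.16 to 1.36% and 1.09 to 1.18% of counted reads. The summed level of the fatty acid genes was 1148 to 1392 FPKM in NS control and 1006 to 1146 FPKM in BCL9 KD, so that the lowest control nearly met the highest knockdown sample, and as a share of reads the groups overlapped. FASN and SCD together were at 1071 ± 108 FPKM in NS control and 889 ± 74.8 FPKM in BCL9 KD, and these groups overlapped. Without FASN and SCD the summed level of the 37 genes was 1034 ± 31.4 FPKM in NS control and 1013 ± 16.6 FPKM in BCL9 KD. The sterol branch enzymes summed to 361 ± 13.5 and 358 ± 14.2 FPKM, and the mevalonate genes to 219 ± 9.65 and 241 ± 11.7 FPKM. FASN and SCD thus carried most of the difference in summed level.

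The direction of the differences varied with the GC content of the transcripts, along which NS control replicate 1 departed from the other libraries. Among the 11 genes with a GC content under 45%, 8 were above 0 with a median log2 difference of 0.35, and NS control replicate 1 was the lowest of all 6 samples in 8 of them. Among the 14 genes at 55% or more, 4 were above 0 and 10 below with a median of −0.03, and NS control replicate 1 was the highest control in 13. The 10 genes in between had 4 above 0 and a median of −0.09. Across the 35 genes the correlation of log2 fold change with GC content was −0.38, and across all tested genes it was −0.24. These genes share the same 6 libraries and are not independent replicates. SQLE and CYP51A1 were the exceptions of the first group that lay well below 0, at a GC content of 40.6% and 40.7%. After correction of each sample for GC content by a loess curve, 9 of the 35 genes were called, beside 11.9% of all tested genes. SQLE, LSS, ACACA and FADS1 remained among them, SQLE at −0.43 (adjusted p = 0.0462) in place of −0.27, with CYP51A1 at −0.54 (adjusted p = 0.0259) and ACLY at −0.27 (adjusted p = 0.0394) also lower. HMGCS1 at 0.29 (adjusted p = 0.0445), INSIG1 at 0.24 (adjusted p = 0.0357) and NR1H2 at 0.27 (adjusted p = 0.0366) were higher. The differences of MSMO1, SC5D, IDI1 and INSIG2 shrank to 0.07, 0.17, 0.28 and 0.21. SREBF1, MVD, FDPS, TM7SF2, EBP and DHCR7, all slightly below 0 before the correction, came out slightly above 0. The correction was chosen after the data were seen, and the part of base composition in the uncorrected differences was not tested beyond it.

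**Figure D4:**
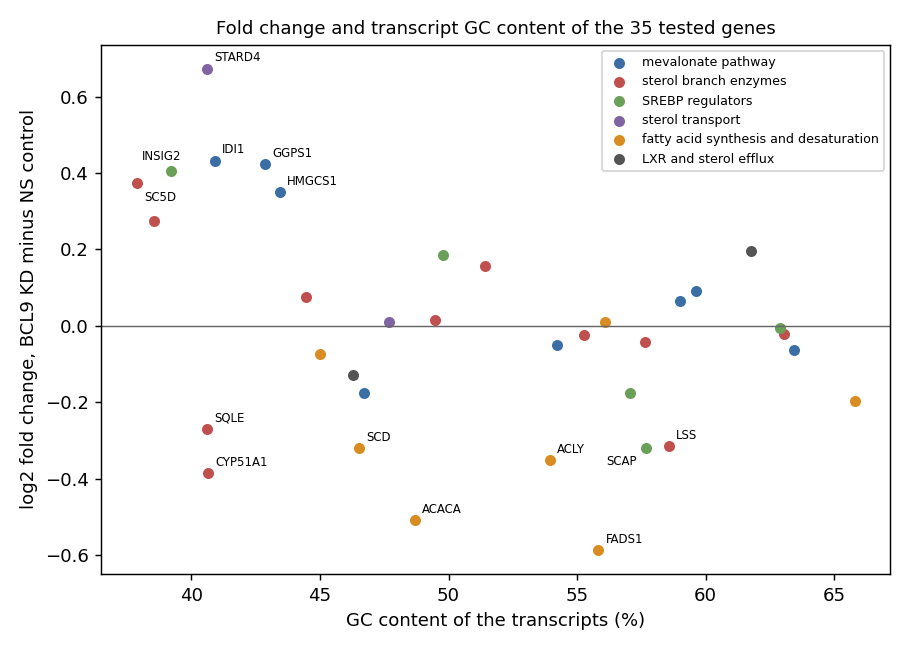
Log2 fold change (BCL9 KD minus NS control) against transcript GC content in percent for the 35 tested genes, coloured by role. Most genes under 45% GC lie above 0, SQLE and CYP51A1 lie below 0 at 40.6% and 40.7%, and the fatty acid genes below 0 span GC contents from 45% to 65.8%.

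A wider list of 116 lipid genes, grouped by function, was read in the same fit. Of these, 96 were tested and 5 were called (5.21%, beside 5.87% of all tested genes), 2 higher and 3 lower, with a median log2 fold change of 0.02. LPCAT1 and PCYT1A, which act in phosphatidylcholine remodelling and synthesis, fell from 22.8 ± 1.64 to 13.7 ± 0.106 FPKM and from 13.3 ± 1.12 to 8.73 ± 0.0169 FPKM. Their log2 changes were −0.71 (SE 0.0746, adjusted p = 0.00977) and −0.58 (SE 0.0811, adjusted p = 0.0187). TMEM97, a sterol-binding membrane protein, fell by 0.47 on the log2 scale (SE 0.0796, adjusted p = 0.0294), from 30.1 ± 2.28 to 21.5 ± 0.896 FPKM. PPARG, a nuclear receptor of lipid storage, rose by 0.66 on the log2 scale (SE 0.116, adjusted p = 0.0322), from 4.83 ± 0.794 to 7.84 ± 0.177 FPKM, although adipocyte markers were near 0. ACSL1, which activates fatty acids to acyl-CoA, rose by 0.33 (SE 0.0656, adjusted p = 0.0387), from 21.1 ± 0.896 to 26.7 ± 0.687 FPKM, but lost the call under median-of-ratios scaling (adjusted p = 0.0651) and voom (adjusted p = 0.0543). TMEM97, PPARG and ACSL1 lost their calls without the filter on low levels and without the trend. The groups did not overlap in any of the 5, and each lost its call without NS control replicate 2 (adjusted p of 0.0724 to 0.142), without BCL9 KD replicate 2 (0.0799 to 0.178) and without BCL9 KD replicate 3 (0.0803 to 0.185). Without BCL9 KD replicate 1, TMEM97, PPARG and ACSL1 had adjusted p values of 0.0506, 0.0559 and 0.0666. Of the 12 genes for SREBP processing and turnover 0 were called, with 6 below and 1 above all controls, beside 16.4% and 17.8% of all tested genes. An unadjusted p under 0.05 was found in 5 (41.7%), all downward, beside 27.5% of all tested genes in both directions. Of the 14 tested genes of triglyceride synthesis and lipid droplets 0 were called. Log2 differences were below 0 in 11, beside 6124 of all 13745 tested genes. In 5 of the 14 all BCL9 KD samples lay below all controls and in 0 above, beside 16.4% and 17.8% of all tested genes. Another 27.5% of all tested genes, 1785 of them downward, had an unadjusted p under 0.05, beside 4 of the 14 (28.6%), all downward.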

How the data were processed

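RNA was isolated from 3 NS control and 3 BCL9 KD flasks of DCIS.COM cells with the miRNeasy kit, and paired-end libraries were made with the NEB Next Ultra kit. Alignment was done with STAR and counting with HTSeq (0.6.1 in the submitters' processing notes, which also name CASAVA and hg38), and the authors deposited FPKM computed from counts, gene lengths and totals. The strand setting is not given in the sources used here. The authors tested counts with DESeq2, whereas the deposited FPKM values were tested here on a log scale. The methods name fewer biological replicates than the 3 samples per group of the labels, and all 6 samples were used.

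FPKM times gene length was divided by a scale fitted for each sample, starting from its smallest positive value taken as 1 read. This gave whole numbers of reads for 100% of values within a tolerance of 0.1, from which depths were taken. Molecular identifiers are not mentioned in the sources used here, so reads were not taken as independent molecules. No 2 samples were identical, and replicates of a group had Pearson correlations of 0.964 to 0.987. Genes with a mean of at least 0.5 FPKM were fitted with limma 3.58.1 (R 4.3.3) on log2(FPKM + 0.5) with an empirical Bayes trend, and p-values were adjusted by the Benjamini-Hochberg method over all 13745 tested genes. A gene was called at an adjusted p under 0.05. Summaries, exact permutation tests and figures used Python 3.11, numpy 2.4.6, pandas 2.3.3 and matplotlib 3.10.9. GC content and exon overlap came from GENCODE transcripts of the GRCh37 lift and were matched by gene, GC content covered 98.8% of tested genes, and gene coordinates are those of the deposited table. Promoter sequences came from RefSeq (GRCh38.p14).

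Values in every sample are given for called genes, for genes without overlap and a log2 difference of at least 0.3, and for the main regulators and rate-setting enzymes, and other genes were named from the wider list where called. The members and lists were chosen with earlier results of these data known. The fit was tested on simulated data. Alternatives covered the pseudocount, filter, scaling, trend, a replicate block, voom on recovered reads, GC correction and leaving out single samples.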

Additional observations from a re-analysis of the deposited data

How the results depend on the processing

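The count of 807 called genes became 142 without a filter, 332 without trend, 1389 with voom on recovered reads, 1409 among protein-coding genes, 1630 after GC correction and 43 at an adjusted p under 0.01, and 5 to 1712 with single samples left out. The lowest counts were 12, 13 and 5 without NS control replicate 2, BCL9 KD replicate 2 and BCL9 KD replicate 3. The 4 lipid synthesis genes called became 1 without a filter, 2 with median-of-ratios scaling, 1 without trend, 9 after GC correction, 0 at an adjusted p under 0.01 and 0 to 8 with single samples left out. They were 0 without NS control replicate 2, BCL9 KD replicate 2 or BCL9 KD replicate 3, where 10, 7 and 10 had an unadjusted p under 0.05, 1 without NS control replicate 1 and 8 without NS control replicate 3. The 2 called with median-of-ratios scaling were 5.71% of the 35, beside 4.70% of all tested genes. The 5 wider lipid genes called became 8 at a mean of at least 1 FPKM, 2 without a filter, 10 with quantile normalization, 2 without trend, 9 with voom, 11 among protein-coding genes, 13 after GC correction, 1 at an adjusted p under 0.01 and 0 to 14 with single samples left out. The median log2 fold change of the 35 genes, −0.02, became 0.0485 after GC correction and −0.0548 to 0.0404 with single samples left out. BCL9 ranged from −1.06 to −0.95 with single samples left out. SREBF1 turned from −0.01 to 0.0655 after GC correction and ranged from −0.0764 to 0.0404 with single samples left out, above 0 without NS control replicate 1 (0.0404), NS control replicate 2 (0.0175) or BCL9 KD replicate 2 (0.0112). For these changes the cause was not tested.

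Correlations between the NS control and BCL9 KD sample of each number, after centring within groups, were −0.15, −0.09 and −0.0029, none above 0. No GC-corrected form of them was computed, although NS control replicate 1 stood apart in its dependence on GC content. They therefore cannot decide whether the replicate numbers pair the samples. With a replicate block on these numbers limma called 0 of all genes, 0 of the 35 genes (15 at an unadjusted p under 0.05) and 0 of the wider list, and BCL9 was at −0.99 with an adjusted p of 0.0656. With GC correction and the replicate block the counts were 156, 0 (14 at an unadjusted p under 0.05) and 1, the median was 0.0485 and SREBF1 was at 0.0655. With voom and the replicate block 2 of the 35 genes (5.71%) were called, beside 4.38% of all tested genes. Over all settings other than the stricter threshold and 27 genes (the 5 called genes of the wider list, SREBF1, and the lipid synthesis genes with log2 differences of at least 0.15 in size), 453 values kept direction and side of the threshold, 71 lost it, 11 gained it and 5 changed sign, all 5 in SREBF1. Apart from SREBF1 the 27 genes were chosen by their change or call in these data. The tally therefore says little on how stable the sign is in other genes. FDFT1, NPC1 and FADS2, which were not among the 27, also changed sign with both other scalings. EBP, DHCR7, ELOVL6, HSD17B7 and TM7SF2, likewise outside the 27, changed sign when certain single samples were left out. At 15222452 to 26949026 reads a sample, ABCA1 and ABCG1 were too low to be tested.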
